A study of Mus musculus with 4 samples.

Results

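The genes described here are 10 genes of vascular growth, namely the growth factors Vegfa, Vegfb, Vegfc and Pgf, the receptors Flt1 and Kdr, the co-receptors Nrp1 and Nrp2, the angiopoietin Angpt2 and Adm, which encodes the peptide adrenomedullin. They were chosen by gene symbol, and every probe set that the array's annotation pairs with 1 of these symbols was taken. Each of the 10 had 1 probe set, so that 10 of 19938 tested genes are described, and transcript forms of a gene, such as those of the secreted and the membrane-bound receptor made from Flt1, could not be told apart. The study measured Dalton's lymphoma ascites (DLA) cells, a mouse tumour passed from animal to animal that multiplies in suspension in the peritoneal fluid. All mice were male Swiss albino animals, 4 to 5 months old, that had received DLA cells in the peritoneal cavity, and the labels name no altered gene in either group. The irradiated group received whole-body electron radiation of 2 Gy on day 8 after transplantation and its cells were collected 48 h later, while the control group was not irradiated. The labels, as read here, give the 48 h for the irradiated group only. Whether the control cells were collected at the same time after transplantation is therefore not known. There were 2 arrays in each group, labelled as biological replicates, and the labels do not say whether 1 array stands for 1 mouse or several. The irradiation reached the host as well as the tumour cells, and the collected cells were not sorted by any step that the labels describe.

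Vascular endothelial growth factors are secreted proteins that act on receptor tyrosine kinases of endothelial cells and drive the growth and leakiness of vessels. VEGF-A signals mainly through KDR, PlGF and VEGF-B bind FLT1, VEGF-C acts on lymphatic vessels, and neuropilins bind the ligands beside the kinases. Adrenomedullin relaxes and stabilises vessels through a receptor made of CALCRL and a RAMP protein, and both Vegfa and Adm are known to be induced by hypoxia through HIF. In ascites tumours, VEGF-A is known for making peritoneal vessels leak fluid.

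Values were log2 probe set intensities, on which 1 unit is a doubling. The arrays had medians between 6.43 and 6.46 over all 35556 probe sets. The irradiated arrays lay further apart than the control arrays, with an SD of their difference of 0.362 against 0.167 over the tested genes. The number of arrays limited the precision, and the p-values measure only the spread between these 4 samples. Genes that mark lymphocytes were dim in cells that the labels call a lymphoma: of 15 tested T and B cell genes, 0 reached the median intensity of the tested genes, and the T cell receptor component Cd3e measured between 6.01 and 6.35. Genes of other lineages were bright on the same arrays, among them the epithelial keratin Krt18, between 12.64 and 13.45, and Eomes, a transcription factor of trophoblast stem cells and of some lymphocytes, between 9.95 and 10.42. Probe sets differ in affinity and no detection call was used, so these levels only describe brightness.

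Of the 10 genes, Adm stood lowest in irradiated cells against control cells, at 2.33-fold below, and Nrp2 and Flt1 stood highest, at 1.56-fold and 1.37-fold above. The ligand Vegfa was 1.17-fold lower and the ligand Vegfb 1.13-fold higher. None of the 10 passed an adjusted p of 0.05 in limma (0 of 10, where 0.00502% of all genes passed), and 3, namely Adm, Nrp2 and Flt1, had an unadjusted p under 0.05, as 10.3% of all genes had. Adm and Nrp2 also met a fold of 1.5 (2 of 10, against 2.37% of all genes), 1 of 10 higher against 1.70% and 1 of 10 lower against 0.672%. Irradiated and control values did not overlap, with irradiated higher, for 3 genes and, with irradiated lower, for 5, which is 8 of 10 genes against 41.7% of all tested genes (17.8% above and 23.9% below). The count was 7 after quantile normalization and 6 with the arrays centred on their medians, where Angpt2 overlapped in both, Nrp1 in the former and Kdr in the latter. Vegfc, which overlapped as deposited, did not overlap after quantile normalization. The share of all genes was not counted under these settings, and the 41.7% belongs to the values as deposited. By sign alone 4 were higher and 6 lower, the median being -0.115 against -0.03 for all genes. Of all genes, 43.4% were higher and 55.4% lower by sign, which is the background for the sign counts of every list below. Because none passed the adjusted threshold, the values describe these 4 arrays.

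**Figure D1:**
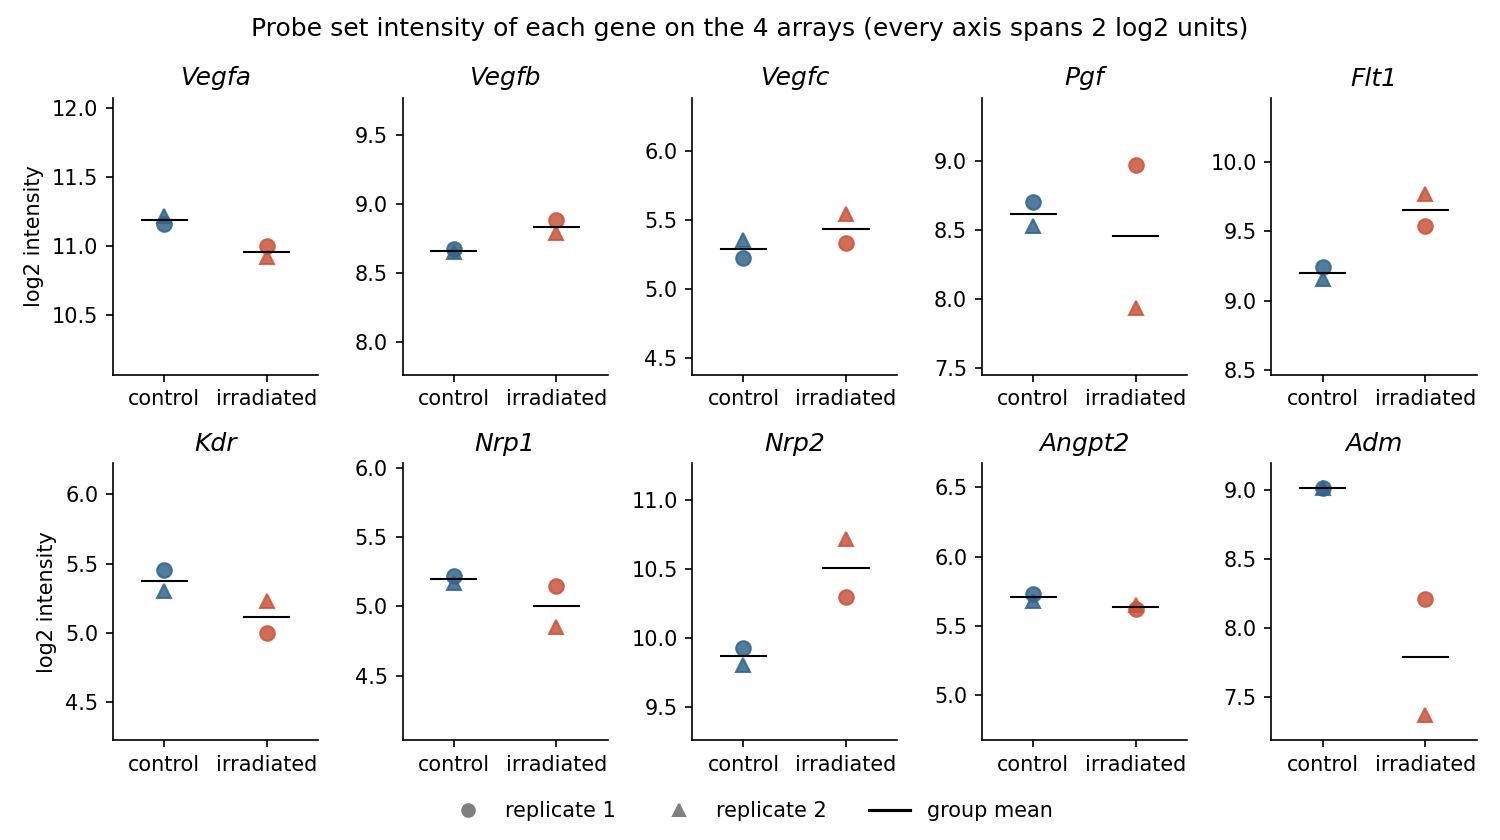
Log2 probe set intensity (vertical axis) of the 10 genes on each control and irradiated array, with circles for replicate 1, triangles for replicate 2 and a line at each group mean; every panel spans 2 log2 units. Adm measured 9.01 on both control arrays and 8.21 and 7.37 on the irradiated arrays, and Pgf is the gene whose irradiated arrays, at 8.97 and 7.94, lie on both sides of the controls.

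Adrenomedullin showed the largest difference of the group. Adm measured 9.01 on each control array, and 8.21 and 7.37 on irradiated replicates 1 and 2. Both irradiated arrays were low, the second more so, and the groups did not overlap. Irradiated minus control was -1.22 log2 units, standard error 0.276 (limma adjusted p = 0.358), a 2.33-fold lower level with a 95% interval of 1.44 to 3.76, and it was the 6th lowest difference of the 19938 genes. Without irradiated replicate 2 the log2 difference was -0.80, and without irradiated replicate 1 it was -1.64. In these bulk samples fewer cells of a type and less RNA per cell cannot be told apart.

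Trophoblast marker genes, epithelial keratins among them, also had their lowest sum on the array where Adm was lowest. The summed linear intensity of 12 tested trophoblast marker genes, which include 3 keratins, was 37143 and 36579 on the control arrays and 30636 and 21083 on irradiated replicates 1 and 2. Of these markers 8 were lower and 4 higher, 6 lay below both controls and 3 above (23.9% and 17.8% of all genes), and the sum is mostly that of the keratins. The defining markers Eomes, Elf5, Cdx2 and Hand1 had log2 differences of 0.365, -0.175, 0.065 and -0.08. The genes of the list with the smallest p were Krt18, at 1.52-fold lower, Krt7, at 2.28-fold lower, Eomes, at 1.29-fold higher, and Gata3, a transcription factor of trophoblast and T cells, at 1.25-fold higher. The part of this difference in that of Adm was not tested.

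Among all genes, those whose 4 values followed Adm most closely, by the Euclidean distance of values taken relative to the control mean over 4 arrays, were Fhdc1, Krt7, Tppp3, Gcnt3 and Amotl2. Fhdc1 was the closest at a distance of 0.224, with 9.87 and 9.94 on control arrays and 9.03 and 8.06 on irradiated arrays. The keratin Krt7, at a distance of 0.285, measured 12.48, 12.36, 11.84 and 10.62 in the same order. With 4 arrays such a distance mainly reflects a low value on irradiated replicate 2 and a smaller step on replicate 1.

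The genes of the adrenomedullin and CGRP axis had differences in both directions. Of 11 tested, 3 were higher and 8 lower (43.4% and 55.4% of all genes), and 2 lay above both controls and 4 below (17.8% and 23.9%). In limma 0 passed the adjusted threshold, with 2 higher and 1 lower at an unadjusted p under 0.05 (5.21% and 5.10% of all genes). The genes named here have the smallest p among those whose groups did not overlap, and the CALCRL and RAMP genes are not among them. Mme, a membrane peptidase that degrades small peptides, was 1.55-fold higher, from 8.35 and 8.36 to 9.06 and 8.92. Pam, the enzyme that adds the terminal amide on which adrenomedullin activity depends, was 1.33-fold higher, from 10.20 and 10.29 to 10.73 and 10.59. Crcp, a CGRP receptor component, was 1.33-fold lower and the calcitonin receptor Calcr 1.20-fold lower. The median of the list was -0.025, and without irradiated replicates 1 and 2 it was -0.195 and 0.15.

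The principal ligand, Vegfa, differed little. Vegfa measured 11.16 and 11.22 on control arrays and 11.00 and 10.92 on irradiated arrays. Both irradiated arrays were lower and the groups did not overlap, yet the log2 difference of -0.23, standard error 0.114, did not pass (limma adjusted p = 0.546). Its 95% interval ran from -0.515 to 0.055, so a lower level of up to 1.43-fold or a higher level of up to 1.04-fold lay within it.

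Vegfb and Vegfc had small differences too. Vegfb, which binds FLT1 and is known for roles in heart and fat tissue, measured 8.67 and 8.65 in control and 8.88 and 8.79 in irradiated arrays, a log2 difference of 0.175 with an interval from -0.108 to 0.458. Its groups did not overlap, with both irradiated arrays higher. Vegfc, the lymphatic growth factor, measured 5.22 and 5.35 against 5.33 and 5.54. These groups overlapped as deposited but not after quantile normalization. Vegfc was dim, at the 24.9th percentile of the tested genes by intensity, where RMA compresses differences.

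Placental growth factor gave the widest interval. Pgf measured 8.70 and 8.53 on control arrays, 8.97 on irradiated replicate 1 and 7.94 on irradiated replicate 2. The irradiated arrays were 1.03 apart and lay on both sides of the controls. The mean difference of -0.16, standard error 0.334 (limma adjusted p = 0.892), turned to 0.355 without irradiated replicate 2 and was -0.675 without irradiated replicate 1, so no direction could be given for Pgf.

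Of the kinase receptors, Flt1 was higher and Kdr was dim. Flt1, which binds VEGF-A, VEGF-B and PlGF and in its secreted form traps them, measured 9.24 and 9.16 in control and 9.54 and 9.77 in irradiated arrays. Both irradiated arrays lay above both controls. On the log2 scale Flt1 was 0.455 higher, standard error 0.132 (limma adjusted p = 0.425), or 1.37-fold with a 95% interval of 1.09 to 1.72. Kdr, the main signalling receptor of VEGF-A, measured 5.45 and 5.30 against 5.00 and 5.23, a log2 difference of -0.26 with an interval from -0.604 to 0.084. Its groups did not overlap, but the gap between the lowest control and the highest irradiated value was smaller than the gap between the replicates of either group. Without irradiated replicate 1 the Kdr difference was -0.145, and without irradiated replicate 2 it was -0.375.

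The neuropilins, which carry VEGF and class 3 semaphorins to their signalling receptors, went in opposite directions by sign. Nrp2, known for binding VEGF-C and semaphorin 3F, measured 9.93 and 9.81 in control and 10.30 and 10.72 in irradiated arrays. Both irradiated arrays were higher, replicate 2 most. On the log2 scale Nrp2 was 0.64 higher, standard error 0.172 (limma adjusted p = 0.394), or 1.56-fold with a 95% interval of 1.16 to 2.10. Leaving out irradiated replicate 2 gave 0.43, and leaving out irradiated replicate 1 gave 0.85. Without either control array, neither Nrp2 nor Flt1 had an unadjusted p under 0.05 in limma, and without irradiated replicate 2 Nrp2 fell short of 1.5-fold. Nrp1, which binds VEGF-A and semaphorin 3A, measured 5.22 and 5.17 against 5.15 and 4.85, a log2 difference of -0.195 with an interval from -0.553 to 0.163. Without irradiated replicate 2 the Nrp1 difference was -0.045. Nrp1 was dim, at percentile 20.2 of the tested genes by intensity, while Nrp2 stood at percentile 90.7. The difference between the neuropilins was not tested.

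Angpt2, an angiopoietin that loosens vessels by opposing ANGPT1 at the receptor TEK, had the smallest difference of the 10. It measured 5.73 and 5.68 in control and 5.62 and 5.65 in irradiated arrays. The log2 difference was -0.07 with an interval from -0.348 to 0.208, and the irradiated arrays were lower without overlap.

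**Figure D2:**
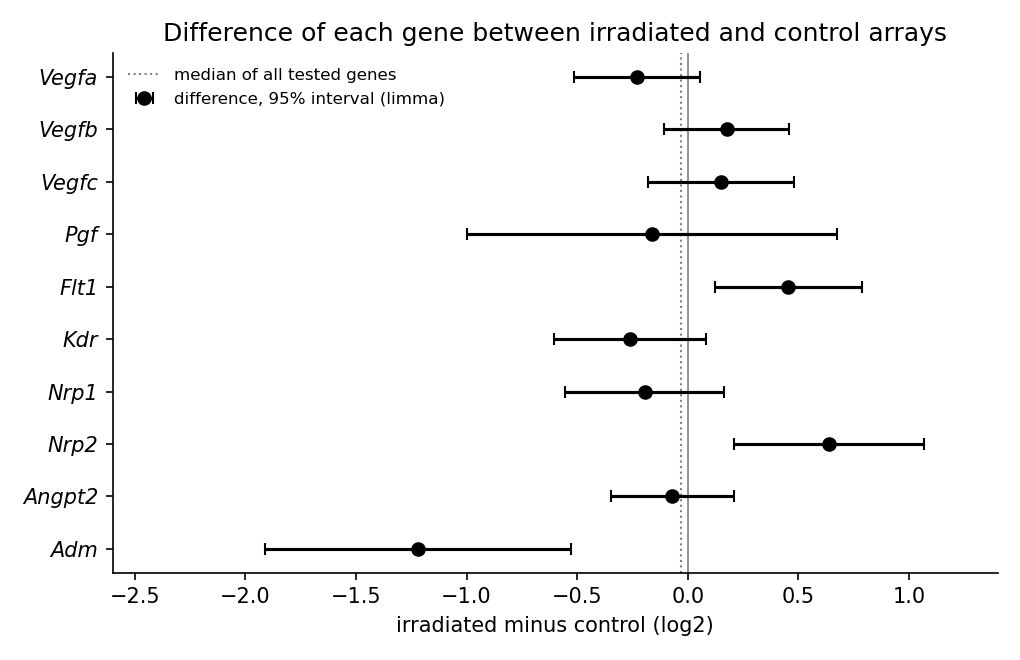
Log2 difference between irradiated and control arrays (horizontal axis) of each gene, with points for the difference and bars for limma's 95% interval; the dotted line is the median of all tested genes at -0.03. The intervals of Adm (-1.912 to -0.528), Flt1 (0.124 to 0.786) and Nrp2 (0.21 to 1.07) do not reach 0, before any adjustment for the number of genes, and the other 7 do.

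The irradiated replicates of these genes spread more than the control replicates. The gap between the irradiated arrays was wider than that between the control arrays for 9 of 10 genes, against 69.4% of all genes, and the median gaps were 0.23 and 0.07, against 0.20 and 0.10 over all genes. Irradiated replicate 2 lay further from the control mean than replicate 1 for 7 of the 10, against 62.1% of all genes.

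**Figure D3:**
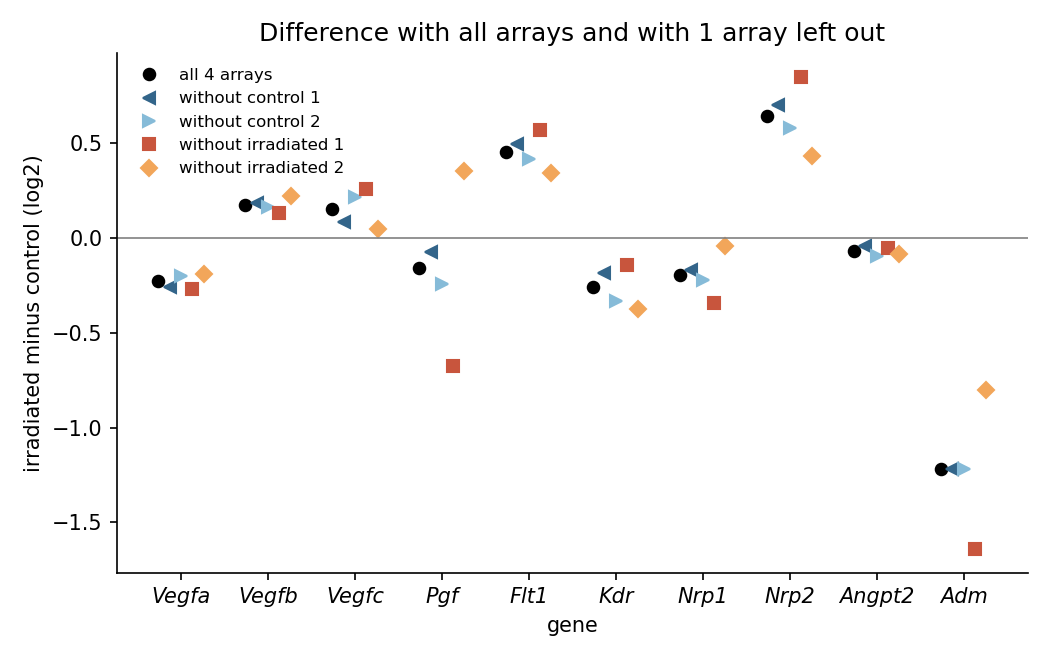
Log2 difference between irradiated and control arrays (vertical axis) of each gene with all 4 arrays (black) and with each array left out (other symbols). Leaving out irradiated replicate 2 moves Adm from -1.22 to -0.80 and turns Pgf from -0.16 to 0.355, whereas leaving out either control array leaves Adm at -1.22.

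The bases just upstream of the start of Adm, Nrp2 and Flt1 are shown because these were the 3 genes with an unadjusted p under 0.05. They are 250 bases in each case, 5′ to 3′ on the gene's strand, from RefSeq on GRCm38.p6: chr7:110627407-110627656 on the + strand for Adm, chr1:62703067-62703316 on the + strand for Nrp2, and chr5:147726012-147726261 on the - strand for Flt1. Capitals mark GCGTG and its relative ACGTG on either strand, which are core letters of the element that HIF binds. They also mark TGACGTCA, the cyclic AMP response element.
Adm: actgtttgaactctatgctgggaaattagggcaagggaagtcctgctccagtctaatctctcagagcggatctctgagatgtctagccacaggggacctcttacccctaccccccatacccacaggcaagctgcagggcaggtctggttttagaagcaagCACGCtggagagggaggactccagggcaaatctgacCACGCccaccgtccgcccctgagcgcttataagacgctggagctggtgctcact
Nrp2: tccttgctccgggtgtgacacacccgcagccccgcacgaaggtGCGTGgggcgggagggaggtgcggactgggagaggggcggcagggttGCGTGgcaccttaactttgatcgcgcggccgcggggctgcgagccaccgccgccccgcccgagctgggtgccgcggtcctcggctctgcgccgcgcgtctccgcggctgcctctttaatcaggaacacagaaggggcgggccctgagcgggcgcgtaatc
Flt1: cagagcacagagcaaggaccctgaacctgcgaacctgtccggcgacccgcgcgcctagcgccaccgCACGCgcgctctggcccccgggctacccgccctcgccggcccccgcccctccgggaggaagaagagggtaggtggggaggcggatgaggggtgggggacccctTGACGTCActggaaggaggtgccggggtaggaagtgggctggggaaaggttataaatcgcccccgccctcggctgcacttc

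Adm held GCGTG at 2 places, both on the opposite strand, beginning 90 and 54 bases before the start, and a TATAA 27 bases before it. In the Nrp2 window GCGTG stood on the gene's strand, 207 and 160 bases before the start. The Flt1 window held 1 GCGTG on the opposite strand, TGACGTCA 81 bases before the start and TATAA 31 bases before it. Of the 9 genes with such a window in the RefSeq table, 8 held GCGTG in at least 1 window, Vegfa alone held ACGTG, and Flt1 alone held TGACGTCA. Over 32851 windows of the same length, 28.2% held GCGTG, 16.6% held the letters ACGTG and 1.55% held the letters TGACGTCA. On the gene's strand alone, 16.0% held TATAA. The motif TGANTCA, known from AP-1, and the motif GGAATG, known from TEAD factors, were found in 0 of the 9 genes and in 6.75% and 12.6% of all windows. Both strands were searched except for TATAA, and the HIF core motifs differ from each other only in their first letter. The windows of these genes were 56.8% to 76.4% G or C against a median of 52.4%, and Vegfa and Pgf were counted over 2 windows each. Genes with differences of either sign held GCGTG, and a match is a description of letters.

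Around the VEGF receptors, the genes of the VEGF and semaphorin axis were more often higher than lower by sign. Of 17 tested, 12 were higher and 5 lower (43.4% and 55.4% of all genes), with a median of 0.08. Of the same 17, 5 lay above and 2 below both controls (17.8% and 23.9% of all genes). None passed the adjusted threshold in limma (0 of 17), and 3 were higher and 0 lower at an unadjusted p under 0.05 (5.21% and 5.10% of all genes). The median was 0.03 without control replicate 2 or without irradiated replicate 1, and 0.16 without irradiated replicate 2. Sema3c, a secreted semaphorin that binds neuropilins, was 1.61-fold higher, from 7.65 and 7.84 to 8.38 and 8.49. Vegfd, a ligand of the lymphatic receptor FLT4, was 0.585 higher on the log2 scale, from 6.08 and 5.97 to 6.52 and 6.70. L1cam, an adhesion protein, was 1.34-fold higher, and Plxna4, a semaphorin co-receptor, measured 5.88 and 5.94 against 6.08 and 6.12.

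Signal transducers of the VEGF receptors also had more higher than lower members. Of 25 tested of 31 listed, 17 were higher and 8 lower, against 43.4% and 55.4% of all genes, with a median of 0.095. Of the same 25, 8 lay above and 1 below both controls, against 17.8% and 23.9% of all genes. In limma 0 passed the adjusted threshold, and 5 were higher and 0 lower at an unadjusted p under 0.05, against 5.21% and 5.10% of all genes. The protein kinase C genes Prkca and Prkcb were 1.32-fold and 1.44-fold higher, the MAP kinase kinase Map2k2 1.29-fold and the survival kinase Akt1 1.29-fold, the last from 10.72 and 10.77 to 11.18 and 11.04. These are general kinases and not specific to VEGF. Without irradiated replicate 1 the median of the list was 0.00.

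In the list of the angiopoietin and TIE axis, which also holds angiopoietin-like genes, 1 of 11 tested genes was higher and 10 were lower. Of all genes, 43.4% were higher and 55.4% lower. The list median was -0.115, and 1 gene lay above and 5 below both controls, against 17.8% and 23.9% of all genes. In limma 0 passed the adjusted threshold, with 1 higher and 2 lower at an unadjusted p under 0.05, against 5.21% and 5.10% of all genes. The higher one was Angptl4, a lipoprotein lipase inhibitor known as a target of PPARs and of hypoxia, at 1.54-fold, from 7.82 and 7.69 to 8.40 and 8.36. Angpt1, the activating ligand of TEK, was dim, between 3.34 and 3.84, and 1.26-fold lower. Angptl8, a partner of other angiopoietin-like proteins in lipid metabolism, was 1.24-fold lower, and Angptl6 measured 7.96 and 8.05 against 7.39 and 7.83. Without irradiated replicates 1 and 2 the median was -0.26 and -0.08.

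Other vascular growth factors and receptors were split evenly, 12 higher and 12 lower of 24, with a median of -0.02, and 0 passed the adjusted threshold in limma. At an unadjusted p under 0.05 there were 2 higher and 1 lower, against 5.21% and 5.10% of all genes, a share near the background. Of the same 24, 7 lay above and 7 below both controls, against 17.8% and 23.9% of all genes. The Notch ligand Jag1 was 1.85-fold higher, from 9.59 and 9.65 to 10.42 and 10.59, and its receptor Notch1 1.32-fold higher, from 7.06 and 7.15 to 7.45 and 7.57. The fibroblast growth factor Fgf1 was 1.26-fold lower, and Ephb4, the ephrin receptor of veins, had a log2 difference of 0.345 that did not pass, with groups that did not overlap.

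Inhibitors of vessel growth had 6 higher and 8 lower of 14 tested, with a median of -0.10. In limma 0 passed the adjusted threshold, with 3 higher and 1 lower at an unadjusted p under 0.05, against 5.21% and 5.10% of all genes. Of the same 14, 3 lay above and 4 below both controls, against 17.8% and 23.9% of all genes. The median had no stable sign: it was 0.445 over the 5 genes at or above the median intensity, -0.023 without irradiated replicate 2 and -0.155 without irradiated replicate 1. Thbs1, the matrix protein thrombospondin 1, was 1.39-fold lower, from 6.81 and 6.82 to 6.50 and 6.18. The metalloprotease Adamts1 was 1.52-fold higher, the chemokine Cxcl10 1.41-fold higher and Spry2, an inhibitor of receptor tyrosine kinase signalling, 1.36-fold higher.

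Most listed genes that HIF is known to induce stood lower by sign, as Adm and Vegfa did. The list does not hold Angptl4, named above as a target of hypoxia, which was 1.54-fold higher. Of 36 tested targets other than Adm and Vegfa, 28 were lower and 8 higher, against 55.4% and 43.4% of all genes, and 14 lay below and 2 above both controls, against 23.9% and 17.8%. The median was -0.13 against -0.03 for all genes, and 0 passed the adjusted threshold in limma, with 3 lower and 0 higher at an unadjusted p under 0.05 (5.10% and 5.21% of all genes). The aldolase Aldoc was 1.59-fold lower, from 8.87 and 8.56 to 8.20 and 7.90, the collagen prolyl hydroxylase P4ha1 1.45-fold, from 10.87 and 10.81 to 10.48 and 10.12, and the oxidase of protein folding Ero1a 1.32-fold. Car12, a carbonic anhydrase, measured 8.98 and 8.99 in control and 8.86 and 8.04 in irradiated arrays. Leaving out irradiated replicate 1 gave a median of -0.30, and leaving out irradiated replicate 2 gave one of -0.025. The median of all genes was not taken with an array left out.

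The HIF subunits and the enzymes that sense oxygen had 6 higher and 13 lower of 19, against 43.4% and 55.4% of all genes. Their median was -0.055, and 3 lay above and 6 below both controls, against 17.8% and 23.9% of all genes. In limma 0 passed the adjusted threshold, and 0 had an unadjusted p under 0.05, where 10.3% of all genes had. Vhl, which marks HIF for degradation, measured 8.71 and 8.82 against 8.54 and 8.48. The ubiquitin ligase subunit Rbx1 measured 10.64 and 10.65 against 10.45 and 10.38, and Arnt, the partner of HIF alpha subunits, 9.94 and 9.96 against 9.56 and 9.81. Eloc, an elongin of the VHL complex, was higher by sign, with 10.37 on each control array against 10.48 and 10.87.

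**Figure D4:**
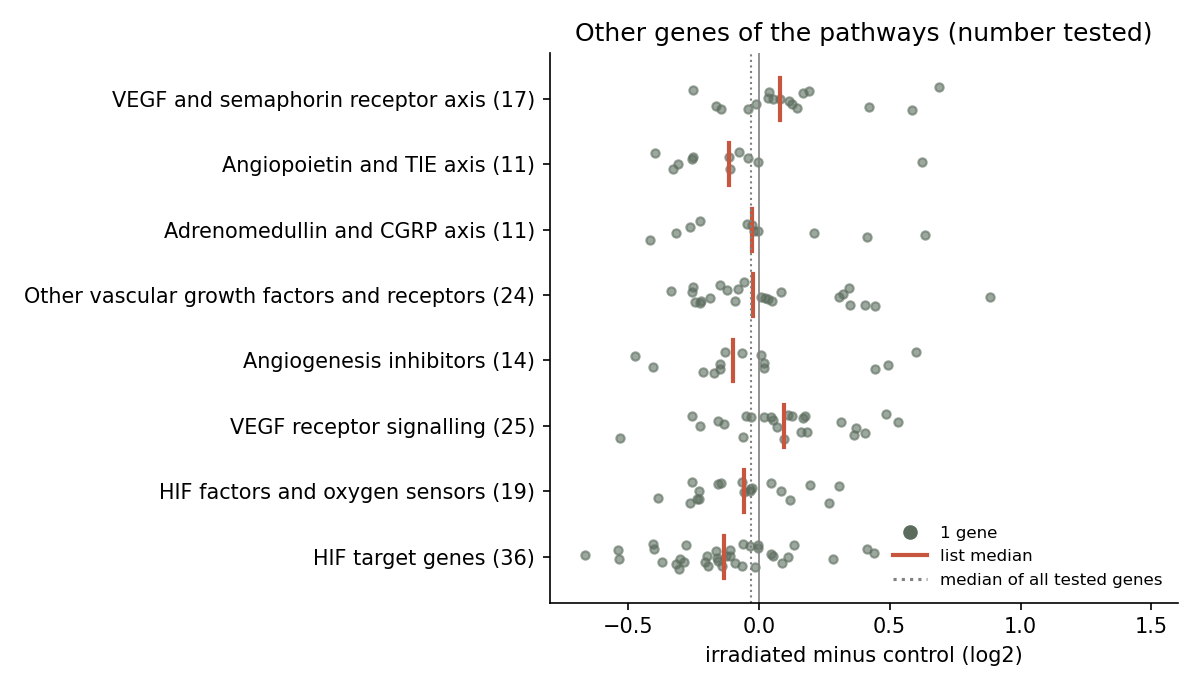
Log2 difference between irradiated and control arrays (horizontal axis) of each tested gene (points) in 8 pathway lists, with the list median in red and the median of all tested genes as a dotted line at -0.03. The medians lie between -0.13 (HIF target genes) and 0.095 (VEGF receptor signalling), and the single highest gene is Jag1 at 0.885.

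The receptors of these factors are known from endothelial cells, whose markers were mostly dim. Of 17 tested endothelial genes, 3 were higher and 14 lower, against 43.4% and 55.4% of all genes. Of the same 17, 2 lay above and 4 below both controls, against 17.8% and 23.9% of all genes. Their summed linear intensity was 1438 and 1357 on control replicates 1 and 2 and 1541 and 1401 on irradiated replicates 1 and 2. The defining markers Pecam1, Cdh5, Tie1 and Emcn measured between 3.75 and 6.26 on all 4 arrays, with log2 differences of -0.04, 0.18, -0.075 and 0.14. Ecscr, an endothelial surface protein, was 1.53-fold higher, from 7.93 and 7.77 to 8.32 and 8.60, and Plvap and Ptprb had log2 differences of -0.28 and -0.25. Pericyte and fibroblast markers had sums of 919 and 903 in control and 909 and 875 in irradiated arrays, with 6 of 12 higher. The defining markers Pdgfrb, Rgs5, Col1a1 and Col3a1 had log2 differences of -0.08, 0.02, -0.055 and 0.04. Those with the smallest p were the proteoglycan Dcn at 0.495, Col1a2 at -0.175, Lum at -0.155 and Cspg4 at 0.11.

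Neutrophil markers differed in both directions. Of 14 tested neutrophil genes, 3 were higher and 11 lower, 3 lay above and 9 below both controls (17.8% and 23.9% of all genes), and the sum was 1663 and 1788 on control arrays and 5712 and 4941 on irradiated arrays. Most of the irradiated sum came from Ly6g, which rose from 8.87 and 8.82 to 12.04 and 11.89 (limma adjusted p = 0.0117). That call was lost with any array left out, at a limma adjusted p between 0.125 and 0.998, and was 0.37 with the replicate number as a block, while its log2 difference stayed between 3.045 and 3.195. S100a8, S100a9, Cxcr2 and Retnlg, the defining markers, were 1.74-fold, 2.00-fold, 2.23-fold and 6.06-fold lower.

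Macrophage genes had 6 of 13 higher and sums of 1352 and 1364 against 1481 and 1361. The mannose receptor Mrc1 was 1.87-fold higher and the lysozyme Lyz2 1.48-fold higher, whereas the receptors Csf1r and Mertk were 1.43-fold and 1.27-fold lower, and Adgre1 and Cd68 had log2 differences of 0.005 and -0.04. Pan-leukocyte genes had 5 of 12 higher and 7 lower, with sums of 5163 and 5359 against 7232 and 8306. Of those sums 82.5% to 90.9% came from Lcp1 and Arhgdib, which were 1.54-fold and 1.59-fold higher, and the other genes summed to 902 and 900 on control arrays and 1069 and 757 on irradiated arrays. Cd52 was 1.69-fold lower and Cytip 1.30-fold lower, Ptprc, which encodes CD45, measured between 5.49 and 5.64 on all arrays, and Laptm5 and Coro1a had log2 differences of -0.125 and -0.31. The part of these differences in the Flt1, Nrp2 and Adm differences was not tested.

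The remaining marker lists were lower by sum on irradiated replicate 2, apart from platelets. Mesothelial genes summed to 7261 and 7342 on control arrays and to 6635 and 3623 on irradiated replicates 1 and 2, with 4 of 8 higher, and most of the sum was that of the keratin Krt19, which measured 12.55 and 12.58 against 12.24 and 11.16. The gene of the list with the smallest p, Bnc1, was 1.55-fold higher, from 9.44 and 9.40 to 10.29 and 9.81. The defining markers Msln, Upk3b, Wt1 and Lrrn4 had log2 differences of -0.665, -0.10, 0.025 and 0.22.

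Erythroid genes summed to 544 and 537 against 514 and 432 with 2 of 8 higher. Alas2, the first enzyme of erythroid haem synthesis, was 1.62-fold lower and Klf1 1.25-fold lower, and Tmod1, Rhag, Slc4a1 and Epb42 had log2 differences of -0.37, 0.29, 0.195 and -0.01. Platelet genes summed to 504 and 489 against 538 and 512 with 4 of 7 higher, among them the chemokines Ppbp and Pf4, with log2 differences of 0.68 and 0.355, while that of Itga2b was -0.09. Lymphocyte genes summed to 705 and 702 against 681 and 590 with 3 of 15 higher, and Cd3e, Cd3g, Cd79a, Zap70 and Thy1 had log2 differences of -0.20, -0.47, 0.50, -0.34 and -0.325. The part of these lists in the Adm difference was not tested.

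**Figure D5:**
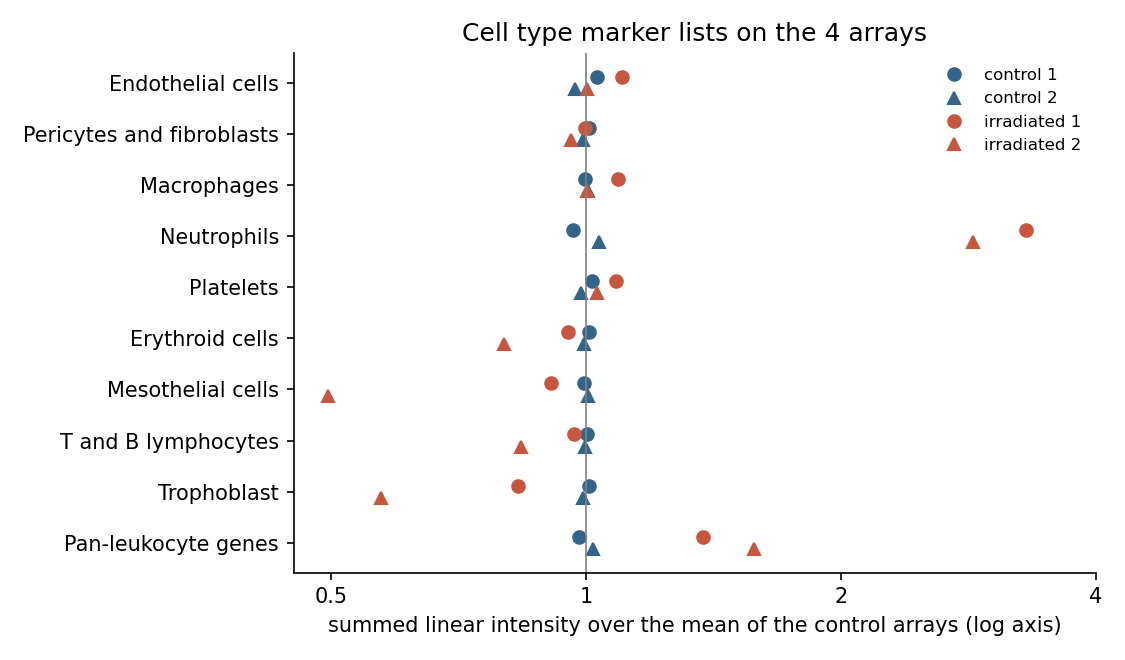
Summed linear intensity of each cell type marker list on the 4 arrays, divided by the mean of the control arrays (horizontal log axis), with circles for replicate 1 and triangles for replicate 2. The endothelial sums lie between 1357 and 1541, while the neutrophil sums are higher and the mesothelial and trophoblast sums lower on irradiated arrays, most of all for the latter lists on replicate 2. Most of the irradiated neutrophil sum is Ly6g, and 11 of 14 neutrophil genes were lower. The mesothelial and trophoblast sums are mostly keratins, and 4 of 8 mesothelial and 4 of 12 trophoblast genes were higher.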

How the data were processed

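Total RNA (300 ng) of 2 control and 2 irradiated samples was labelled with biotin and hybridised to one-colour arrays, per the labels' protocols. The deposited values are log2 probe set intensities made by the authors with RMA, per the submitters' processing notes. The sources used here do not give its version, genome build or annotation. RMA equalises the arrays and compresses differences of dim probe sets.

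Of 35556 probe sets, 21789 had 1 gene symbol, 1621 several and 12146 were not listed, and 0 columns belonged to other samples. Symbols were updated by Entrez identifier through RefSeq (GRCm38.p6), used for names and upstream sequences (9 of the 10 genes matched). The brightest probe set of each gene was tested, giving 19938 genes. The comparison used limma 3.58.1 in R 4.3.3 (lmFit, eBayes, two-sided, no covariates), Benjamini-Hochberg adjusted over all genes at 0.05. The procedure was also run on simulated data with equal spread in both groups. That run does not cover the wider spread of the irradiated arrays seen here. A second rule took an unadjusted p under 0.05 with a fold of 1.5. Intervals are those of limma's moderated statistic.

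The genes and lists were chosen with earlier results of these data known. Named were all 10 genes, up to 4 genes with the smallest p and groups that did not overlap in each list, 4 defining markers of each cell type list where tested, and the 5 genes nearest to Adm. Listed genes without a 1-symbol probe set were not analysed here.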

Additional observations from a re-analysis of the deposited data

How the results depend on the processing

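Over 13 alternative settings, 122 of 123 values of the 10 genes kept their direction. The exception was Pgf, which turned from -0.16 to 0.355 without irradiated replicate 2 (from -0.675 to 0.355 with each array left out). Filters on dim genes, probe set choices, the replicate block and limma's variance options cannot change the log2 difference of a gene with 1 probe set. Only quantile normalization, centring and left-out arrays could therefore turn a direction. With all 4 arrays kept, 0 of the 10 genes passed the adjusted threshold in limma under any setting. For Adm the limma adjusted p then ran from 0.196 to 0.57. The count of the 10 genes past an unadjusted p of 0.05 with a 1.5-fold difference was 2; it ran from 1 to 3 with an array left out and was 1 at a fold of 2. Of the 6 genes kept by a filter at the median intensity, 5 had groups that did not overlap, against 8 of 10, and the count was 7 of 10 after quantile normalization and 6 of 10 with centred arrays. The matching share of all genes was not counted under these settings. Over all genes, 473 were past an unadjusted p of 0.05 with 1.5-fold, from 315 to 1558 with an array left out and 91 at a fold of 2. The 1 gene past the adjusted threshold, Ly6g, was lost in every fit with an array left out (0 to 0) and with the replicate number as a block (0), where the count at an unadjusted p under 0.05 with 1.5-fold was 476. Deviations of same-numbered arrays correlated at 0.068, so the numbers were not taken as a pairing; with the block, the limma adjusted p of Adm was 0.57 and 2 of the 10 genes met the second rule. In fits of 3 arrays the lone sample is assumed to vary like the other group. List medians under alternatives were added after seeing the data. With 2 arrays per group, small differences can be missed, and dim genes (Vegfc, Kdr, Nrp1) are limited further by signal over background.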
